A study of Mus musculus with 3 samples.

Results

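The mature products of 3 mouse microRNA (miRNA) hairpins, miR-361, miR-872 and miR-350, are described here in visceral fat. They make up 6 of the 1251 mature miRNAs in the deposited table, a 5p arm and a 3p arm for each hairpin. The hairpins were chosen by the mean log2 ratio of their 5p arm to their 3p arm in these samples, which lay nearest to 0 among well-measured hairpins. The levels of the arms and the ratio between them are therefore given as descriptions, with no test.

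Small RNA was sequenced from epididymal (visceral) white fat of C57BL/6J mice labelled VIS-EPA 1, 3 and 9, called mice 1, 3 and 9 below. The animals were 5 to 6 weeks old at the start and ate a high-fat diet for 11 weeks, with 45% of energy from fat, 20% from protein and 35% from carbohydrate and with 6.75% eicosapentaenoic acid (EPA), a long-chain omega-3 fat found in fish oil. They were fasted for 4 h before the tissue was taken. All 3 samples belong to this single diet group, and no control diet was analysed here, so what EPA changes is not measured; the titles alone present them as separate animals.

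A miRNA hairpin is cut out of a longer transcript by the nucleases Drosha and Dicer, which leaves a short duplex of the 5p and 3p arms. An Argonaute protein normally keeps one strand as the guide and the other, the passenger, is degraded. The strand whose 5′ end is less tightly paired tends to be kept, and Argonaute favours a U or A as its first base. Because bases 2 to 8 of a miRNA, the seed, select its target messenger RNAs, 2 arms of a hairpin usually address different targets. miR-361-5p is known for repressing the vascular growth factor gene VEGFA in human cells.

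The 6 mature sequences are shown because the seeds set the targets of each arm and the first bases bear on which strand is kept. They are given 5′ to 3′ from RefSeq on GRCm38.p6 with the seed in capitals, and all 6 members matched an entry.
miR-361-5p: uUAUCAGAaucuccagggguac
miR-361-3p: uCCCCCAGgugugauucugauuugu
miR-872-5p: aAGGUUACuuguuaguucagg
miR-872-3p: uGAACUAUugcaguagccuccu
miR-350-5p: aAAGUGCAugcgcuuuggg
miR-350-3p: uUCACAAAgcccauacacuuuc

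The 6 seeds all differ, within each hairpin and between hairpins. No other mature mouse miRNA in the RefSeq table has the seed of 5 of them. The table held both arms for only 81.4% of the well-measured hairpins, so a match outside it would be missed. The seed of miR-350-5p is also that of miR-291b-3p, a miRNA of the embryonic stem cell cluster miR-290 to miR-295, printed here so that the shared 5′ end can be seen; it lies at chr7:3219529-3219550 on the plus strand of GRCm38.p6.
miR-291b-3p: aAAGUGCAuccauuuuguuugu
From the 5′ end the first 9 bases of miR-350-5p and miR-291b-3p are the same. miR-291b-3p stood at the floor of the scale, 3.32 log2 units, in mice 1, 3 and 9, whereas miR-350-5p was above it in each.

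The hairpins are shown with both arms in capitals, to place the arms around the loop.
miR-361 hairpin: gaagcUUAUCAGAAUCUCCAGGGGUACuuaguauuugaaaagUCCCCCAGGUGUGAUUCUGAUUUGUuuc
miR-872 hairpin: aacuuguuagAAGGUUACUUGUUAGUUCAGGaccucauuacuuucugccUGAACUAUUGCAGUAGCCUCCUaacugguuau
miR-350 hairpin: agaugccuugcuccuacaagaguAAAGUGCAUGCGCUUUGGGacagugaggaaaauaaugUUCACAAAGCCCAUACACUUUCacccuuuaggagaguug
Mir361 covers chrX:113074824-113074893 on the minus strand, in an intron of Chm, which encodes a Rab escort protein. Mir872 covers chr4:94665157-94665237 on the plus strand, in an intron of Ift74, a gene of intraflagellar transport in cilia. Mir350 covers chr1:176772325-176772423 on the minus strand, in an intron of Cep170, which encodes a centrosomal protein. Each host gene lies on the same strand as its hairpin in GENCODE M21, and none of the hairpins overlaps an annotated exon or UTR of its host. The arms are separated by 15 bases in miR-361 and by 18 bases in both miR-872 and miR-350.

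All 6 arms stood above the floor in every mouse. Values are log2 normalized counts on the authors' scale, on which 3.32 is the floor of undetected miRNAs and the highest value is 18.67. The rank of a miRNA counts down from the most abundant of the 1251.

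miR-361-5p had 7.999, 8.32 and 8.21 log2 units in mice 1, 3 and 9, and miR-361-3p had 8.04, 7.94 and 7.87. The order of the arms was not the same in all mice: the 3p arm was the higher one in mouse 1 and the 5p arm in mice 3 and 9. The log2 ratio of 5p to 3p was -0.04 in mouse 1, 0.38 in mouse 3 and 0.33 in mouse 9, with a mean of 0.22 ± 0.23 (SD, n = 3). The mean lies within its own spread. In mouse 1 the arms stood 2 ranks apart, at 148 for 5p and 146 for 3p. In linear terms, with the floor subtracted, the 5p arm held 54.0% ± 4.19 of the hairpin's summed value, and the widest difference between arms on the deposited scale, with the floor left in, was 1.30-fold, in mouse 3.

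miR-872-5p had 7.73, 8.05 and 6.68 log2 units in mice 1, 3 and 9, and miR-872-3p had 7.64, 8.16 and 7.64. In mice 1 and 3 the arms lay close together, and in mouse 9 the 5p arm stood apart from both its partner and its own level in the other mice. The log2 ratio of 5p to 3p was 0.09 in mouse 1, -0.11 in mouse 3 and -0.96 in mouse 9, with a mean of -0.33 ± 0.56 (SD, n = 3). The 5p arm held 51.6% of the hairpin's value in mouse 1, 48.1% in mouse 3 and 32.8% in mouse 9. The lean to 3p rests on mouse 9, since without it the mean ratio was -0.01 and the 5p arm held 49.8%.

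The same mouse set miR-872-5p apart in rank. It held rank 157 in mouse 1, 145 in mouse 3 and 193 in mouse 9, where miR-872-3p held rank 161. Other signals also differed in mouse 9. The summed level of 5 epithelial miRNAs (miR-200a-3p, miR-200b-3p, miR-200c-3p, miR-141-3p and miR-429-3p) was 9.22 log2 units in mouse 1, 9.36 in mouse 3 and 4.72 in mouse 9; 2 of the 5 were above the floor in every mouse and none was at the floor in all. All 5 belong to the miR-200 family, so the sum speaks for that family and not for epithelial cells at large. Outside that family, miRNAs of epithelial cells did not all behave alike in mouse 9. miR-183-5p, of sensory and epithelial cells, had 7.73, 8.21 and 7.75 log2 units in mice 1, 3 and 9. miR-182-5p and miR-205-5p, named after their values were seen, were both lowest in mouse 9. In mice 1, 3 and 9 miR-182-5p stood 7.96, 8.61 and 6.27 log2 units above the floor, and miR-205-5p 5.38, 7.80 and 4.72. The part of epithelial cells in the miR-872-5p value was not tested. In bulk tissue, fewer cells of a type and less RNA per cell cannot be told apart.

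miR-350-5p had 6.72, 6.83 and 6.87 log2 units in mice 1, 3 and 9, and miR-350-3p had 7.28, 7.14 and 7.12. Here the arms did not overlap, and the 3p arm was the higher one in every mouse. The log2 ratio of 5p to 3p was -0.56 in mouse 1, -0.31 in mouse 3 and -0.26 in mouse 9, with a mean of -0.38 ± 0.17 (SD, n = 3). On the deposited scale the 3p arm was thus 1.48-fold, 1.24-fold and 1.19-fold above the 5p arm in mice 1, 3 and 9. The 5p arm held 43.0% ± 3.03 of the hairpin's summed value.

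**Figure D1:**
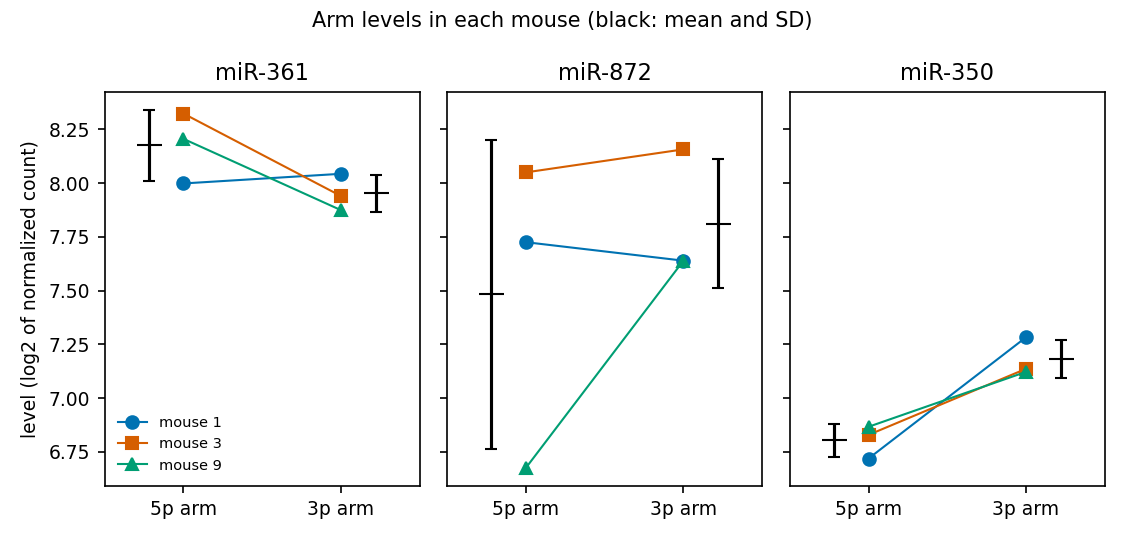
Level of the 5p and 3p arm of miR-361, miR-872 and miR-350 in log2 normalized counts; each coloured line joins the arms in 1 mouse, and black marks give the mean and SD of 3 mice. Lines slope in both directions for miR-361 and miR-872, the line of mouse 9 is steepest for miR-872 (6.68 at 5p and 7.64 at 3p), and all 3 lines climb towards 3p for miR-350.

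The direction of the offset was thus stable in 1 of the 3 hairpins. Of the 129 hairpins whose larger arm averaged at least 100 normalized counts above the floor, 126 had the arms in the same order in all 3 mice (97.7%). miR-361 and miR-872 changed order between mice, and miR-375, named for this reason after its values were seen, had both arms at the floor in mouse 3. The choice by ratio favours hairpins that change order, so nothing is read from this count. The ratio of miR-361 exceeded that of miR-350 in 3 of 3 mice, by 0.60 ± 0.09 log2 units. It exceeded that of miR-872 in 2 of 3 mice (0.55 ± 0.71), as did the ratio of miR-872 over that of miR-350 (0.05 ± 0.69), both within the spread (SD, n = 3).

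The spread of the single arms between mice ran from very small to large. SDs were 0.16 log2 units for miR-361-5p, 0.09 for miR-361-3p, 0.08 for miR-350-5p and 0.09 for miR-350-3p, all below the median SD of 0.22 over the 194 miRNAs that averaged 100 or more normalized counts above the floor. miR-872-3p had an SD of 0.30 and miR-872-5p one of 0.72, and 92.8% of the 194 miRNAs had a smaller SD than miR-872-5p. Both arms of miR-872 were highest in mouse 3, by 0.57 log2 units above their mean for 5p and 0.35 for 3p. In mouse 9 both were below their mean, with deviations of -0.81 for 5p and -0.17 for 3p. In mouse 1 they deviated in opposite directions, by 0.24 for 5p and -0.17 for 3p, and miR-872-3p had the same value in mice 1 and 9. The arms of miR-361 and of miR-350 deviated in opposite directions in every mouse, by at most 0.18 log2 units. The SD of the log2 sum of both arms was 0.07 in miR-361 and 0.02 in miR-350, below that of either arm, and 0.45 in miR-872.

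Summed over both arms, miR-350 gave 241, 234 and 236 normalized counts above the floor in mice 1, 3 and 9, a mean of 237 ± 3.49. miR-361 gave 500, 546 and 510, a mean of 519 ± 24.4. miR-872 gave 391, 531 and 282, a mean of 401 ± 125 (SD, n = 3). miR-361 stood above miR-350 in every mouse, by 1.13 ± 0.09 log2 units. It stood above miR-872 in every mouse too, but by 0.42 ± 0.41 log2 units and by only 0.04 in mouse 3. miR-872 exceeded miR-350 in 3 of 3 mice, by 0.71 ± 0.46. Sequences are captured unequally in small RNA libraries, so levels of different miRNAs are compared here as measured, without correction for that.

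By mean level the 6 arms ran from miR-361-5p (8.18 ± 0.16) through miR-361-3p (7.95 ± 0.09), miR-872-3p (7.81 ± 0.30), miR-872-5p (7.48 ± 0.72) and miR-350-3p (7.18 ± 0.09) to miR-350-5p (6.81 ± 0.08 log2 units, SD, n = 3). Only the last neighbouring pair, the arms of miR-350, kept its order in 3 of 3 mice. Each of the other 4 neighbouring pairs kept it in 2 of 3, so their order is not set. Their mean differences were no larger than the SD, which measures the spread between mice and not the error of the mean.

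These are miRNAs of middle to low abundance. Their ranks ran from 136 to 193 of the 316, 317 and 336 miRNAs above the floor in mice 1, 3 and 9. miR-361-5p, the highest, held 0.0117% of the summed normalized value and miR-350-5p, the lowest, 0.0042%. By the summed value of both arms the hairpins stood at places 89 (miR-361), 97 (miR-872) and 108 (miR-350) of 129. miR-350-5p, at a mean of 102 normalized counts above the floor, lies just inside the level of 100 by which miRNAs were taken as well measured. Single values fell under that level for miR-872-5p in mouse 9 (92.3) and for miR-350-5p in mouse 1 (95.4). In this stretch of ranks 1 rank was worth 0.029 log2 units on average, and the deposited columns at equal ranks differed by up to 0.08. Within a mouse the arms of one hairpin stood 2 to 32 ranks apart, closest for miR-361 in mouse 1 and farthest for miR-872 in mouse 9.

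The floor limits how far apart arms at this level can be seen. A hairpin whose larger arm has the level of miR-361-5p cannot show a ratio beyond 4.85 log2 units, and the limits for miR-872 and miR-350 are 4.49 and 3.86. The measured mean ratios used 4.60%, 7.31% and 9.74% of those spans in miR-361, miR-872 and miR-350, against a median of 90.8% for the other 126 hairpins. Among the 33 other hairpins whose larger arm lay within 1 log2 unit of that of miR-361, the median size of the ratio was 4.07 log2 units, with a range of 0.90 to 5.69, and in 16 the smaller arm was at the floor in every mouse. For miR-872 the 33 other hairpins had a median of 3.90, and for miR-350 the 26 others had one of 3.86 and none below 2.47. These comparisons describe where the chosen hairpins lie. They carry no test, since the ratio chose them.

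**Figure D2:**
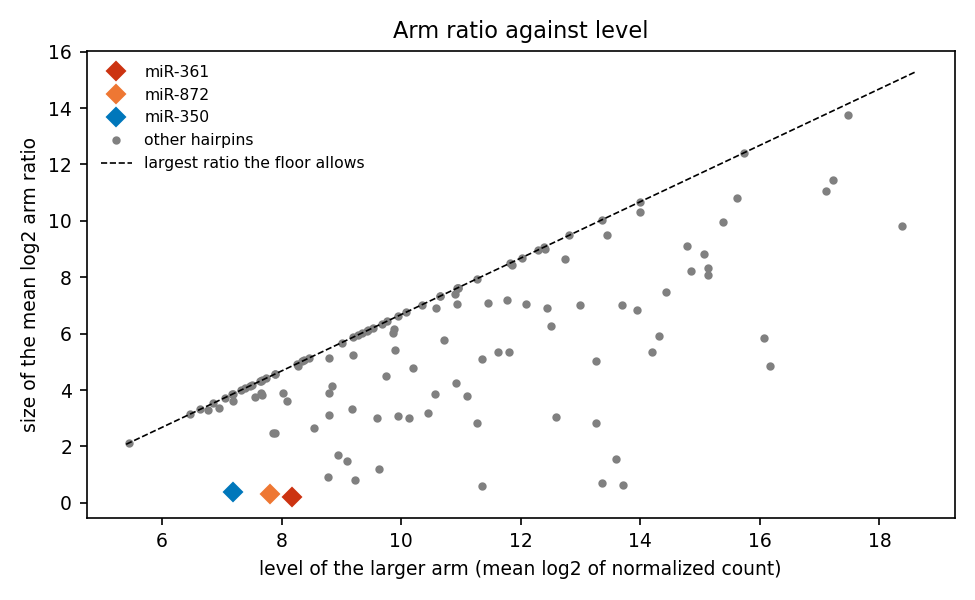
Size of the mean log2 arm ratio against the level of the larger arm, for miR-361, miR-872 and miR-350 (diamonds) and the other 126 hairpins (grey); the dashed line is the largest ratio that the floor allows. The 3 hairpins lie at the bottom left, between 0.22 and 0.38, while in 16 of the 33 other hairpins near the level of miR-361 the smaller arm was at the floor, which places them on the line.

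Hairpins of nearly the same summed value had one arm far above the other. miR-615 lay nearest to miR-361 in summed value, with a log2 ratio of -5.69 ± 0.18 and its 5p arm at the floor in every mouse. miR-133b, the other neighbour of miR-361 and a muscle miRNA, had -4.33 ± 3.32, with its 5p arm at the floor throughout and its 3p arm at 3.83, 9.49 and 9.65 log2 units in mice 1, 3 and 9. Beside miR-872 lay miR-338 with -2.64 ± 1.08 and the neuronal and vascular miR-132 with -5.14 ± 0.37. Beside miR-350 lay miR-183 with 4.57 ± 0.27 and miR-224 with 4.57 ± 0.71, both with the 3p arm at the floor in every mouse (SD, n = 3).

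Just outside the choice stood miR-423, miR-151 and miR-126, with mean log2 ratios of -0.60 ± 0.22, -0.64 ± 0.12 and -0.70 ± 0.16, against -0.38 for miR-350, the last one inside (SD, n = 3). In all 3 the 3p arm was the higher one in every mouse. They are far more abundant. The larger arms averaged 11.36 log2 units in miR-423, 13.71 in miR-151 and 13.37 in the endothelial miR-126, against 8.18 in miR-361, 7.81 in miR-872 and 7.18 in miR-350. Together with the chosen hairpins they were the 6 of 129 (4.65%) whose ratio lay within 1 log2 unit of 0 in every mouse. The rule used this same ratio, so nothing is read from all 3 chosen hairpins being among them.

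**Figure D3:**
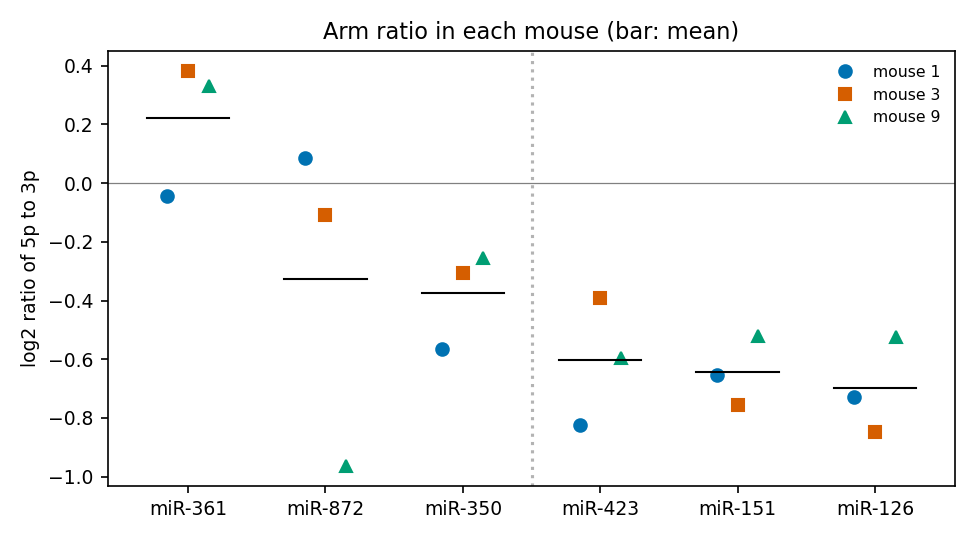
Log2 ratio of 5p to 3p in each mouse (symbols) with the mean (bar), for the 3 chosen hairpins left of the dotted line and the next 3 in order to the right of it. miR-361 and miR-872 have values on both sides of 0, and miR-872 in mouse 9 reaches -0.96.

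Over all 129 hairpins 67 had a positive mean ratio, with 5p higher, and 62 a negative one. The median size of the ratio was 5.29 log2 units over the 126 not chosen here. The median SD of the ratio between mice was 0.34 log2 units over the 129, against 0.23 in the miR-361 hairpin, 0.56 in miR-872 and 0.17 in miR-350. In 47 of the 129 one arm was at the floor in every mouse, so their SD is that of the other arm alone. The median is therefore not a like measure for hairpins with both arms above the floor.

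**Figure D4:**
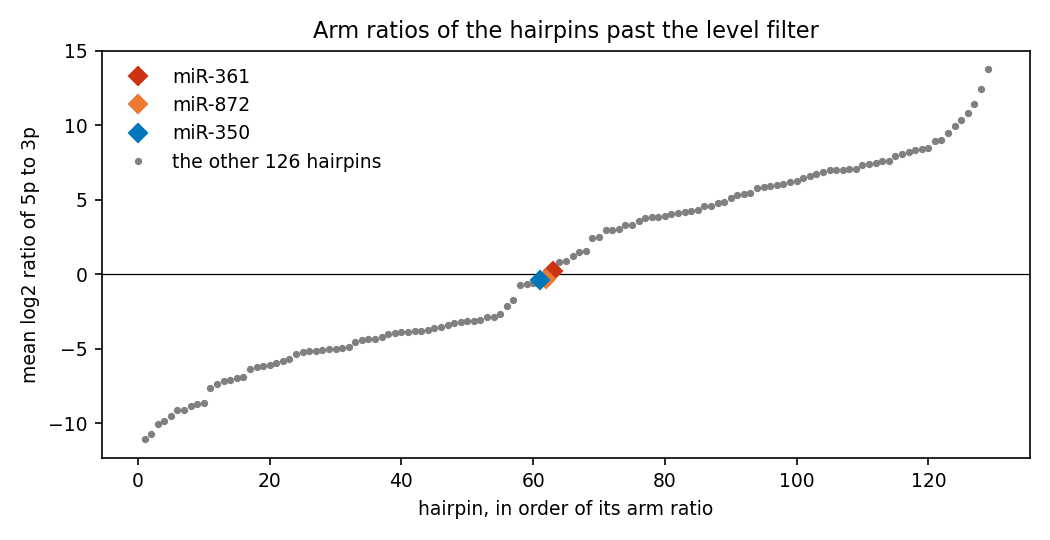
Mean log2 ratio of 5p to 3p of the 129 hairpins in order, with miR-361, miR-872 and miR-350 as diamonds and the other 126 as grey points. The order passes steeply through 0, where the 3 diamonds sit at 0.22, -0.33 and -0.38.

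The rule did not use sequence. The first base was U in all 3 of the 3p arms and in miR-361-5p, and A in miR-872-5p and miR-350-5p, so every one of the 6 arms began with U or A. In the 102 other hairpins with both mature sequences in RefSeq, both arms began with U or A in 37 (36.3%). In those 102 the larger arm began with U in 54 (52.9%) and the smaller arm in 20 (19.6%). The larger arm by mean began with U in each of miR-361, miR-872 and miR-350. Mature sequences of both arms were found for 105 of 129 hairpins (81.4%), and 3 hairpins are too few to set against the 102 by a test.

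The number of A or U among the first 4 bases was 4 in miR-361-5p and 1 in miR-361-3p. It was 2 in miR-872-5p and 3 in miR-872-3p, and 3 in both arms of miR-350. In the 102 other hairpins the larger arm had more A or U there in 49, fewer in 26 and as many in 27.

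The hairpins were folded with RNAfold, and the hydrogen bonds of the first 4 bases of each arm were counted, with 3 for a G-C pair and 2 for an A-U or G-U pair. miR-361 had 4 bonds at the 5′ end of 5p and 8 at that of 3p, the widest gap of the 3. miR-872 had 8 at 5p and 9 at 3p, and miR-350 had 9 at 5p and 7 at 3p. The end with fewer bonds thus belonged to the higher arm by mean in miR-361 and miR-350 and to the lower arm in miR-872. For miR-350 the sign turns with the window, since over 3 bases the counts were 6 at 5p and 7 at 3p. Folding energies were -28.6 kcal/mol for the 70 bases of miR-361, -31.4 for the 81 of miR-872 and -32.1 for the 99 of miR-350. A comparison of these bond counts with other hairpins was taken as void and not made, because both arms and the hairpin were matched in RefSeq for 97 of 129 (75.2%), under the 80% set as the least coverage for such a comparison.

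The annotated length is unusual in 2 of the 6 arms. miR-361-3p has 25 bases and miR-350-5p has 19, while the other 4 have 21 or 22. Among the 204 arms of the other 102 hairpins the median was 22 bases, 1 had 19 or fewer and 3 had 25 or more. What length the sequenced reads had is not in the table, and the part of read length in the arm ratios was not tested.

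For each arm the most similar miRNAs of other hairpins were taken as the 2 with the smallest largest log2 difference over the 3 mice, among the 194 with a mean of at least 100. miR-361-5p was nearest to miR-410-3p (0.21) and miR-125b-1-3p (0.27). miR-361-3p was nearest to the hypoxia-induced miR-210-3p (0.18) and to miR-345-5p (0.18). miR-872-3p was nearest to miR-183-5p (0.11), a miRNA of sensory and epithelial cells, with 7.73, 8.21 and 7.75 log2 units in mice 1, 3 and 9, and then to miR-345-5p (0.34). miR-350-5p was nearest to miR-486-3p (0.11) and miR-3107-3p (0.28), whose hairpins overlap on opposite strands. miR-350-3p was nearest to miR-106b-5p (0.07) and miR-532-3p (0.16).

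miR-872-5p had no close match. Its nearest miRNAs, miR-17-5p and miR-194-5p, differed from it by up to 0.68 and 0.72 log2 units. None of the 6 arms was among the 2 nearest of an arm of another chosen hairpin. Nearness over 3 mice reflects level more than movement between mice.

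The tissue label was checked with miRNA lists. All 5 adipocyte-linked miRNAs were above the floor in every mouse, with a summed level of 17.91 to 18.37 log2 units. Summed levels were 13.86 to 14.38 for 2 endothelial, 13.06 to 13.16 for 4 leukocyte and 12.07 to 12.74 for 2 erythroid miRNAs. The 4 striated muscle miRNAs summed to 11.94, 16.39 and 16.03 in mice 1, 3 and 9, so mouse 1 was low in these. Of 8 testis and germ cell miRNAs 6 were at the floor in every mouse, with a summed level of 7.60 to 7.88. None of these lists defines fat alone. miRNAs of the muscle list were low in mouse 1, in which the 2 arms of miR-361 were closest and those of miR-350 farthest apart. Mouse 1 also had the highest erythroid sum (12.74, against 12.20 in mouse 3 and 12.07 in mouse 9). Its endothelial sum was the lowest (13.86, against 14.38 in mouse 3 and 13.94 in mouse 9). The part of muscle or other cells in those ratios was not tested.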

How the data were processed

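The log2 values, deposited as 1 column per mouse, were made by the authors from small RNA libraries (Illumina small RNA protocol, per the labels' protocols). Per the series' design text, reads were processed with the Gunaratne pipeline, about 13.8 M reads per sample were mapped to mouse build mm10, and counts were normalized to total usable reads with 40 counts added. Which aligner and which miRNA annotation were used is not given in the sources used here. Unlogged, the lowest value is 10, and 260 values fall above it but under 40, so 10 was taken as the floor. Of the top 100 ranks, 85 hold equal values in the 3 mice within 1e-06, so mice share nearly one set of values and differences between mice are in essence differences of rank. Within a mouse the order of 2 arms is kept by such a step, and the size of their ratio is not. The exact depth of each library is unknown beyond the stated figure of about 13.8 M, so no counting interval is given.

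Ratios are differences of deposited log2 values. Percentages and sums use the linear value minus 10. Hairpins were kept with both arms listed (425) and a mean of 100 or more above the floor in the larger arm (129). No test was made, because the members were chosen by the ratio and there is 1 group. The members and lists were chosen with earlier results of these data known. The miRNAs named were the 6 members, the 3 hairpins next in order, the 2 hairpins nearest to each in summed value, the 2 miRNAs nearest to each member in level over the mice and those with a shared seed. Sequences and positions come from RefSeq on GRCm38.p6 and host genes from GENCODE M21, both on the assembly that mm10 names. miR-142 and miR-497 were matched as miR-142a and miR-497a. Hairpins of similar level and arm lengths were added after values were seen. The ratio calculation was run on simulated data with set ratios. That run checks the arithmetic only, and not how well small ratios are measured at the level of the 6 members. Python 3.11.15, numpy 2.4.6, pandas 2.3.3, matplotlib 3.10.9 and RNAfold 2.7.2 were used, with random seed 11. Alternatives were other constants, scaling, level filters and bond windows, the median over mice, the floor left in and leaving out each mouse.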

Additional observations from a re-analysis of the deposited data

How the results depend on the processing

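Of 100 recomputed values over 19 results, 79 counted as unchanged, 20 moved further and 1 changed sign. Unchanged meant within the spread between mice, at the same place in the order or at the same number of bonds. For the count of hairpins it meant within 1.5 times of it. Part of the 79 was fixed in advance, since with 3 mice leaving out 1 cannot shift a mean by more than its SD. Nothing is read from ratios, shares and levels staying within their spread without 1 mouse. With the other constants and with scaling the mean log2 arm ratio moved by less than its SD, though scaling treats both arms of a mouse alike. Leaving out 1 mouse gave 0.14 to 0.36 for miR-361, -0.54 to -0.01 for miR-872 (-0.01 without mouse 9) and -0.44 to -0.28 for miR-350. The 5p share ran over 52.6% to 56.4%, 40.4% to 49.8% and 41.9% to 44.7% in the same order. With a constant of 1 or 40 the ratio was 0.23 or 0.20 for miR-361, -0.35 or -0.27 for miR-872 and -0.40 or -0.30 for miR-350. The number of hairpins within 1 log2 unit of 0 in every mouse was 5 with a constant of 1, when miR-872 left it at -1.03 in mouse 9. It was 6 with a constant of 40, 6 to 7 without 1 mouse, and 3 with a mean of 1000 or more required of the larger arm, a filter that none of the 3 chosen hairpins passes and for which they have no place in the order. By the median over mice the order was miR-872, miR-350 and miR-361, and without mouse 1 miR-872 was in place 4. The bond difference of miR-350 (5p minus 3p) was 2 over 4 bases and -1 over 3 bases. The unknown exact depth of each library limits what a ratio of a few ranks can show. No paired analysis was possible because there is 1 group.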
